A study of Mus musculus with 32 samples.

Results

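The livers of mice were compared for 38 cell cycle and proliferation genes, chosen as the rows of the 2 deposited gene count tables whose symbol is on a fixed list of 38 names, out of 41585 gene entries per table. The rule uses gene names and no measured value, although the list of names was drawn up with earlier results of these data known. All 32 libraries of the study were used, with 4 libraries in each of 8 groups, made from the liver of C57BL/6 mice of both sexes (C57Bl/6J in the study's methods). Wildtype (WT) mice were compared with Cyp2b-null mice, which lack Cyp2b9, Cyp2b10 and Cyp2b13, cytochrome P450 genes removed in every cell of the animal with CRISPR/Cas9. Mice of each genotype and sex received a normal chow diet (ND) or CDAHFD, a high fat diet that lacks choline and supplies L-amino acids in defined amounts, with 62% fat and 0.1% methionine, which produces steatohepatitis. Feeding began at 10 weeks of age and lasted 8 weeks. WT mice were purchased, whereas the Cyp2b-null line was made by gene editing on the same strain, so genotype and the source of the animals cannot be told apart. The study asked what part the Cyp2b genes play in diet-induced steatohepatitis, and the comparisons below ask how genes of cell division differed with diet, with genotype and with sex.

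Cell division follows an ordered program. Cyclin D and cyclin E with their kinases carry a cell from G1 into S phase, the MCM helicase opens the origins and PCNA clamps the polymerases to DNA, and in G2 and M the B cyclins with CDK1, the Polo and Aurora kinases, the spindle motors and the anaphase promoting complex condense, align and separate the chromosomes. Most genes of the later steps are transcribed mainly in dividing cells, so in an adult liver, where nearly all hepatocytes rest in G0, their transcripts are scarce, and they rise when hepatocytes or the other cells of the organ enter the cycle. Promoters of this class are known for short sequence elements. Late genes carry the cell cycle homology region (CHR, TTTGAA) with CCAAT boxes, bound by the DREAM and MYB-MuvB complexes and by NF-Y, and genes of S phase carry E2F sites.

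The 200 bases before the annotated start are shown for 5 members because they set late genes, a gene with elements of both classes, an S phase gene and the only member that fell with diet side by side. They are RefSeq sequences of the mouse build GRCm38.p6, all on the minus strand, printed 5′ to 3′ with the CHR, CCAAT box and E2F letters in capitals, in either orientation. The windows are chr4:118437344-118437543 for Cdc20, chr9:70421555-70421754 for Ccnb2, chr10:69352913-69353112 for Cdk1, chr1:128359706-128359905 for Mcm6 and chr11:117826015-117826214 for Tk1.
Cdc20: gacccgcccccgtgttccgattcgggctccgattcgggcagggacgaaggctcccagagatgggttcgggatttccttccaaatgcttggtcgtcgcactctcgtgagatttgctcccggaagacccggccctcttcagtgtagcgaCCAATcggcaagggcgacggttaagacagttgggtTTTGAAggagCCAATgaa
Ccnb2: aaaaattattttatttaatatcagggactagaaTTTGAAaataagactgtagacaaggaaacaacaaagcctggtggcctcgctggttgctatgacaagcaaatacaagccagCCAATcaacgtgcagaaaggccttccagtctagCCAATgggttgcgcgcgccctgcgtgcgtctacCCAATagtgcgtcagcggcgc
Cdk1: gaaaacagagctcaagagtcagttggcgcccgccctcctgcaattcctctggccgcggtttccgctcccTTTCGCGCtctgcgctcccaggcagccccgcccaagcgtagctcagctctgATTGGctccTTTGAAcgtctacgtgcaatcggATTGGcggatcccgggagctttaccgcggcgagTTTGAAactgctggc
Mcm6: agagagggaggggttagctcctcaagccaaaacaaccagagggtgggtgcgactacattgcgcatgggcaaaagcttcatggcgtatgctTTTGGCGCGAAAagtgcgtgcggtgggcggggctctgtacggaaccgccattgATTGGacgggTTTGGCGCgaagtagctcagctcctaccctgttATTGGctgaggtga
Tk1: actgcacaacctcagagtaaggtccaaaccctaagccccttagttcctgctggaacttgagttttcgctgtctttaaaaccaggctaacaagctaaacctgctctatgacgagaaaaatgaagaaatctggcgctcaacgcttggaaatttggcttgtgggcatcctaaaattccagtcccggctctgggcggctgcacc
Cdc20 and Ccnb2 held a CHR and CCAAT boxes, Cdk1 held these and an E2F site, and Mcm6 held CCAAT boxes and E2F sites, of which a pair overlapped. None of these letters was in the Tk1 window, which precedes a start inside the outermost boundary of the annotated gene. In Ccnb2 the printed TTTGAA, at −167 from the start, lay before the CCAAT boxes, and another lay past the start, outside the printed bases. A RefSeq promoter window, from 250 bases before to 50 bases after the start, was at hand for 30 of the 38 members. On either strand, TTTGAA was in the windows of 16 of these 30 members (53.3%) against 20.2% of 27025 genes, and CCAAT in 26 (86.7%) against 41.1%. Both were in the windows of 16 members (53.3%) against 7.97% of all genes. One of the E2F letters TTTGGCGC, TTTCCCGC, TTTGCCGC or TTTCGCGC was in the windows of 5 members, Cdk1, Mcm3, Mcm5, Mcm6 and Mcm7 (16.7%), against 2.6% of all genes. A match of letters is a description of the window and no measure of binding.

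The libraries held 2906411 to 10166959 counts each. Levels are given as CPM, the counts of a gene scaled to a common library total, after scaling all 32 libraries together, always in the order of replicates 1 to 4, and a count of 3, taken as the floor, was worth 0.25 to 1.15 CPM, less in the deeper libraries. The deleted genes followed the labels where WT libraries expressed them. In females Cyp2b9 had 683 to 3530 counts per WT library, against 2 to 8 per Cyp2b-null library. In ND-fed males Cyp2b10 had 33 to 97 counts per WT library, against 1 to 9 without the genes. In CDAHFD-fed males Cyp2b9 had 118 to 364 counts per WT library, against 2 to 7. The tissue was labelled liver, and the hepatocyte markers Alb, Ttr, Apoa1, Cps1, Serpina1c, Tat and Hnf4a summed to 53800 to 191000 CPM over the libraries. For Kif11, the spindle motor Eg5, 0 counts were listed in all 32 libraries, so it was never tested.

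Most of the cell cycle genes rose with CDAHFD in both sexes and both genotypes. Of the members with enough counts to test, 26 of 36 rose and 1 fell in WT females, 27 of 36 rose and 1 fell in Cyp2b-null females, 30 of 37 rose and 1 fell in WT males, and 32 of 37 rose and 1 fell in Cyp2b-null males (adjusted p under 0.05, over all genes tested). The share of all genes that rose was 13.8%, 17%, 18% and 20.2% in the same order, and 10.2%, 13.8%, 14.8% and 17% fell. The median log2 change of the tested members was 2.04, 2.0, 2.56 and 2.35, beside medians of −0.002, 0.027, −0.023 and −0.008 over all genes tested. The 25 members that rose in all 4 comparisons were Mki67, Top2a, Foxm1, Cdca3, Ccnd1, Mcm2, Mcm3, Mcm5, Mcm6, Ccnb1, Ccnb2, Cdk1, Plk1, Bub1b, Birc5, Cdca8, Cdc20, Ube2c, Kif20a, Cenpe, Cenpf, Nusap1, Tpx2, Prc1 and Racgap1. Tk1 was lower in all 4. Scaling by library size alone moved the medians over all genes to 0.317, 0.282, 0.371 and 0.365 and the share of higher genes among all calls from 57.7%, 55.1%, 54.8% and 54.3% to 89.1%, 85.8%, 89.9% and 86.3%, and under it Tk1 was still lower in all 4 comparisons.

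Many of these genes were almost silent on ND, and that shaped which of them could be tested. At most 3 counts in each of the 4 libraries were listed for 7 members in ND-fed WT females, 6 in ND-fed Cyp2b-null females, 7 in ND-fed WT males and 5 in ND-fed Cyp2b-null males, against Kif11 alone in every CDAHFD-fed group. In females 19 of the 36 tested members, and in males 21 of 37, passed the filter on low counts only through CDAHFD-fed libraries, so these had to be higher there. Among the members that ND-fed libraries alone carried through the filter, 8 of 17 rose in WT females, 10 of 17 in Cyp2b-null females, 10 of 16 in WT males and 11 of 16 in Cyp2b-null males, and Tk1 was the 1 that fell in each. Their median log2 changes were 0.95, 0.89, 0.77 and 0.92. Bub1 in females and Kif11 in both sexes did not pass the filter.

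**Figure D1:**
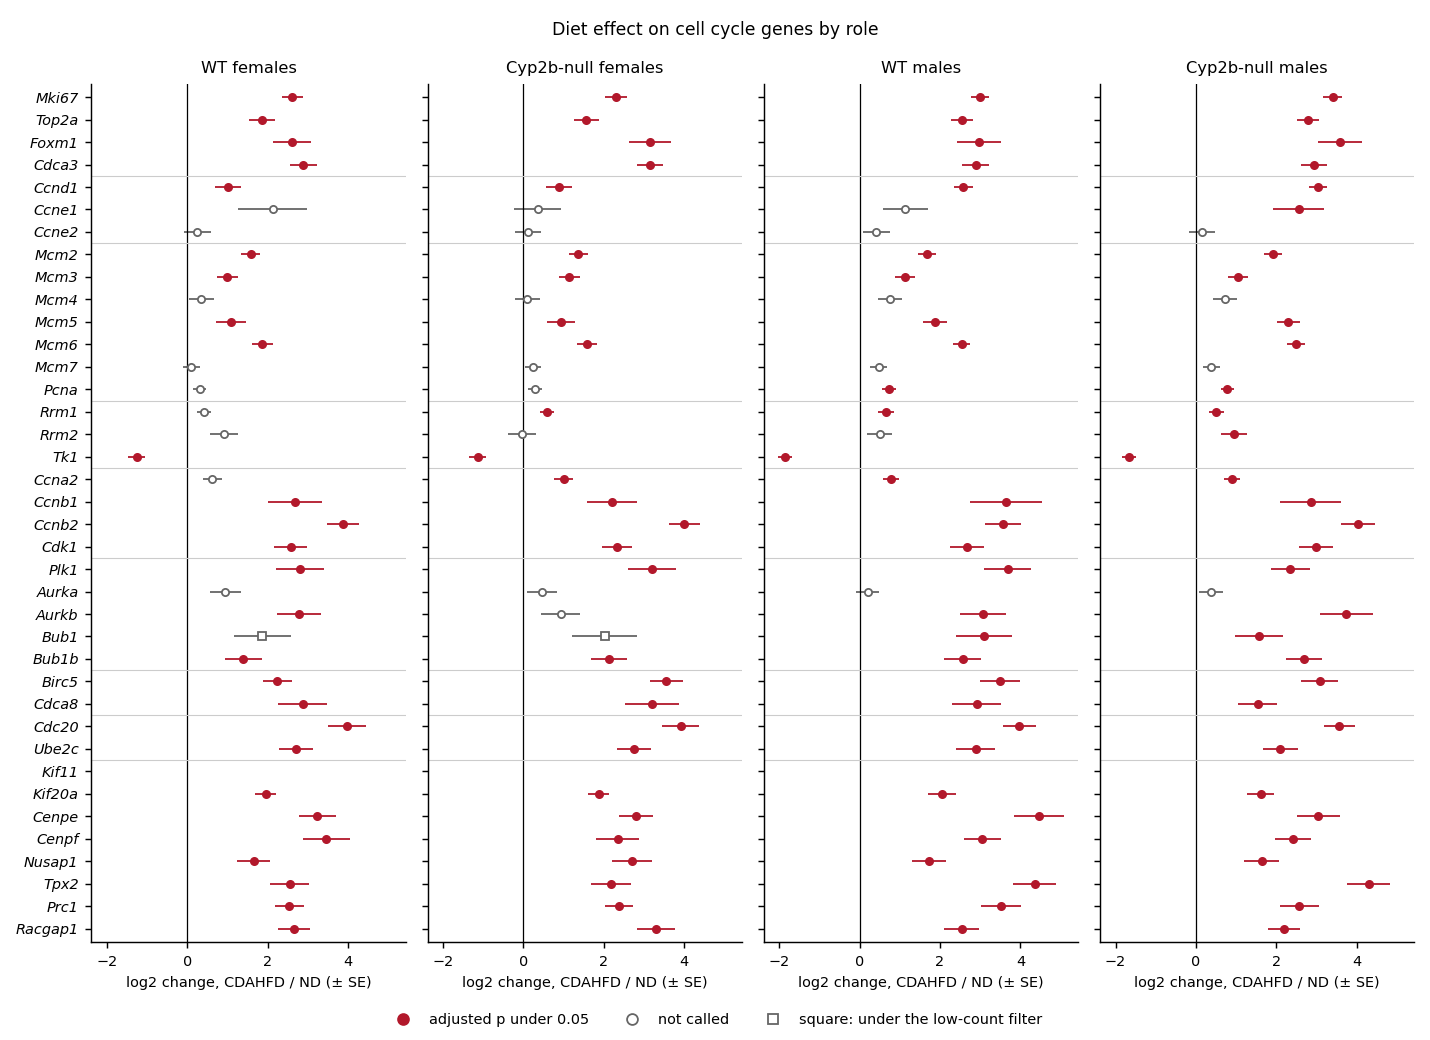
Log2 change with CDAHFD against ND (x axis, ± SE) for each member, grouped by role, in WT females, Cyp2b-null females, WT males and Cyp2b-null males (4 libraries per group). Red filled points passed an adjusted p of 0.05, open points did not, and squares mark members under the filter on low counts. Tk1 is the only member to the left of 0 that passed, at −1.26, −1.14, −1.86 and −1.67, while Cdc20, at 3.98, 3.91, 3.97 and 3.57, is among the members farthest to the right.

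Markers of several other cell types moved with the diet as well. The counts of markers stand beside 13.8%, 17%, 18% and 20.2% of all genes tested that rose and 10.2%, 13.8%, 14.8% and 17% that fell. These shares are for WT females, Cyp2b-null females, WT males and Cyp2b-null males in turn. Of 7 tested macrophage markers 6 rose in each of the 4 comparisons, and the summed level of the 8 listed macrophage markers was 163 to 611 CPM over ND-fed libraries and 649 to 1540 CPM over CDAHFD-fed libraries. Trem2, one of the 8, had 0 counts in all libraries. Stellate cell and fibroblast markers summed to 98.9 to 182 CPM on ND and 411 to 740 CPM on CDAHFD, and 5, 6, 5 and 7 of 8 rose in WT females, Cyp2b-null females, WT males and Cyp2b-null males. Neutrophil markers summed to 0.443 to 4.56 CPM on ND and 7.02 to 23.4 CPM on CDAHFD, with all 3 tested markers higher in each comparison. Of these, S100a8 had at most 3 counts in every ND-fed female library, and S100a8 and S100a9 in every ND-fed Cyp2b-null male library. For markers so scarce on ND the filter on low counts favoured a rise. Cholangiocyte markers went from 20.7 to 61.6 CPM on ND to 99.2 to 317 CPM on CDAHFD, and 2, 3, 2 and 2 of 5 rose. On CDAHFD most of that sum was Spp1, which macrophages also express, at 9.43 to 55.2 CPM on ND and 84.8 to 291 CPM on CDAHFD, while the duct keratin Krt19, at 0.198 to 4.59 and 0.657 to 5 CPM, passed in none. The markers that rose therefore included Krt7, Epcam or Sox9 in each comparison. Endothelial markers summed to 113 to 222 CPM on ND and 110 to 214 CPM on CDAHFD, with 0, 0, 1 and 3 of 5 higher and 1, 3, 0 and 0 lower. Over all libraries the sums of T and NK lymphocyte markers (2.69 to 5.86 and 1.9 to 14.3 CPM), B lymphocyte markers (1.09 to 9.32 and 2.19 to 10.2 CPM) and erythroid markers (171 to 645 and 215 to 849 CPM) overlapped between the diets. In females the T and NK sums were apart, at 2.69 to 3.44 and 3.54 to 9.22 CPM in WT mice. In Cyp2b-null females they were 3.57 to 5.86 and 6.66 to 14.3 CPM, while the male groups overlapped. Erythroid sums were apart in Cyp2b-null males alone, at 455 to 516 CPM on ND and 292 to 440 CPM on CDAHFD. Hepatocyte markers covered 107000 to 191000 CPM on ND and 53800 to 115000 CPM on CDAHFD, and 6, 6, 7 and 5 of the 7 fell. The part of these cells in the cell cycle results was not tested, and in bulk liver more cells of a type and more RNA per cell cannot be told apart.

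Without cyclin D1, which made up a large share of the total, the summed level of the other 37 members was 107 to 165 CPM over all ND-fed libraries and 227 to 333 CPM over all CDAHFD-fed libraries. No ND-fed library reached the level of a CDAHFD-fed one. The values were 122 to 153 CPM in ND-fed and 247 to 318 CPM in CDAHFD-fed WT females, 117 to 165 and 256 to 293 CPM in Cyp2b-null females, 107 to 132 and 227 to 331 CPM in WT males, and 117 to 121 and 261 to 333 CPM in Cyp2b-null males. The lowest CDAHFD-fed library was replicate 4 of the WT males, which was lowest of its group for 22 of 37 members. Replicate 2 of that group, the highest for 19 members, had 331 CPM.

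**Figure D2:**
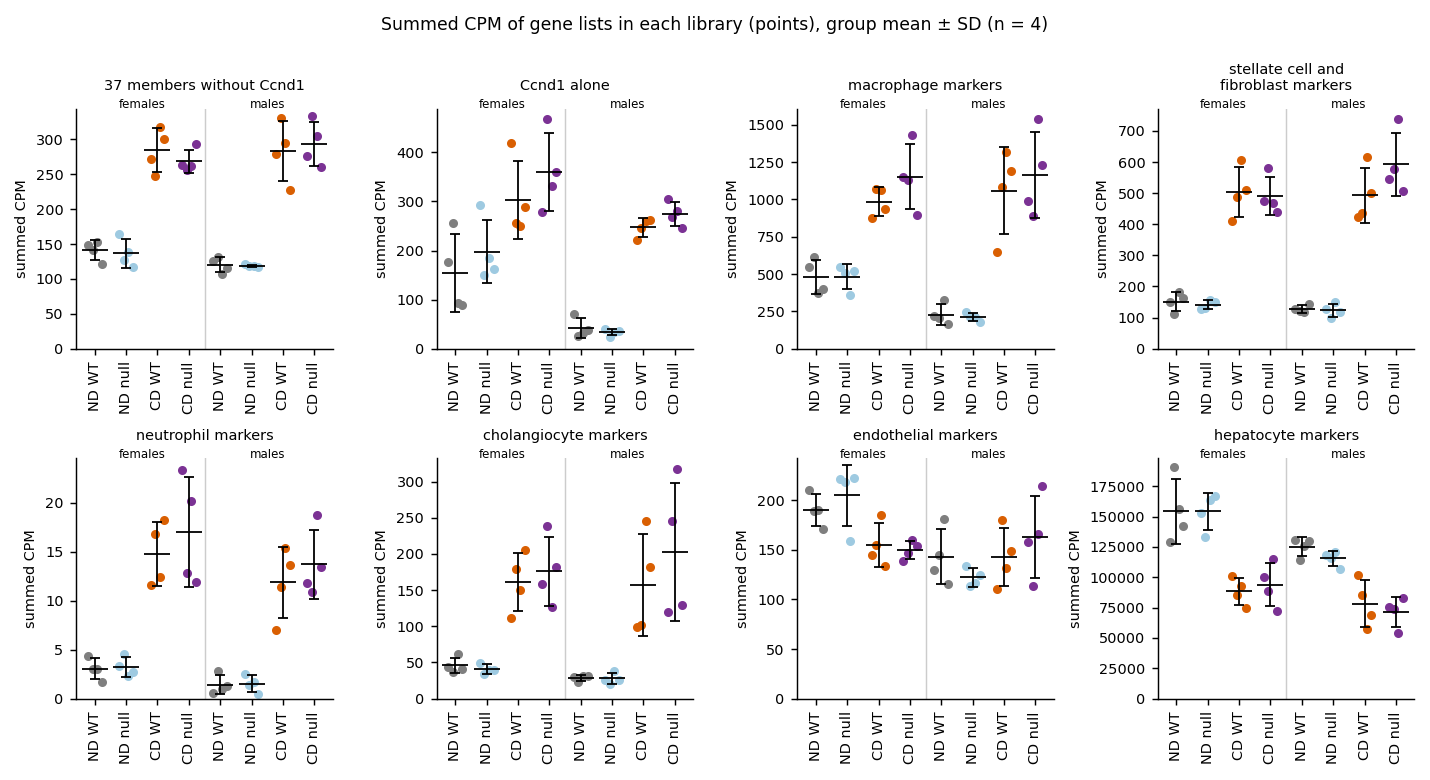
Summed CPM in each library (points, one panel per list) for the 37 members without Ccnd1, for Ccnd1 alone and for markers of macrophages, stellate cells and fibroblasts, neutrophils, cholangiocytes, endothelial cells and hepatocytes in the 8 groups of 4. The members without Ccnd1 lie at 107 to 165 CPM on ND and 227 to 333 CPM on CDAHFD, macrophage and stellate markers rise alongside, and hepatocyte markers lie lower on CDAHFD.

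Among the general markers of dividing cells all 4 members rose in all 4 comparisons. Foxm1 and Cdca3 in both sexes, and Top2a in males, passed the filter on low counts only through CDAHFD-fed libraries, which favoured a rise. Mki67 (chr7:135689784-135716450) encodes the Ki-67 antigen that coats mitotic chromosomes. It measured 3.78, 3.83, 3.7 and 2.59 CPM in ND-fed WT females and 19, 19.8, 27.3 and 16.1 CPM in CDAHFD-fed WT females, and 3.93, 2.38, 3.84 and 2.51 CPM in ND-fed Cyp2b-null females and 17.9, 14.6, 8.92 and 17.3 CPM in their CDAHFD-fed counterparts. In males Mki67 measured 2.39, 3.97, 2.47 and 3.94 CPM in ND-fed WT males and 24.7, 33.7, 26.1 and 16.7 CPM in CDAHFD-fed WT males, and 2.45, 2.05, 3.37 and 3.1 CPM in ND-fed Cyp2b-null males and 25, 31.9, 32.2 and 25.8 CPM in their CDAHFD-fed counterparts. Every CDAHFD-fed library exceeded every ND-fed library of its sex, and the lowest of them was replicate 3 of the CDAHFD-fed Cyp2b-null females. The log2 changes of Mki67 with diet were 2.61 ± 0.27 in WT females, 2.30 ± 0.27 in Cyp2b-null females, 3.0 ± 0.23 in WT males and 3.40 ± 0.24 in Cyp2b-null males, with adjusted p-values of 1.55e-07, 1.32e-06, 2e-09 and 3.41e-10. Top2a, the topoisomerase that untangles sister chromatids, measured 4.97, 2.3, 3.7 and 1.03 CPM in ND-fed WT females and 10.9, 7.55, 14 and 10.2 CPM in CDAHFD-fed WT females, and 2.72, 3.97, 2.69 and 2.51 CPM in ND-fed Cyp2b-null females and 9.81, 8.09, 7.67 and 9.65 CPM in their CDAHFD-fed counterparts. In males it measured 1.84, 1.49, 1.37 and 3.28 CPM in ND-fed WT males and 10.4, 13.5, 9.59 and 11.9 CPM in CDAHFD-fed WT males, and 1.22, 2.73, 1.69 and 1.99 CPM in ND-fed Cyp2b-null males and 11.3, 12.3, 15 and 11.9 CPM in their CDAHFD-fed counterparts. Its groups did not overlap in any of the 4 diet comparisons, and its log2 changes were 1.87 ± 0.32 in WT females, 1.57 ± 0.32 in Cyp2b-null females, 2.55 ± 0.27 in WT males and 2.79 ± 0.27 in Cyp2b-null males. Foxm1, a transcription factor of G2 and M genes, rose by 2.60, 3.16, 2.97 and 3.59 on the log2 scale in WT females, Cyp2b-null females, WT males and Cyp2b-null males, but had at most 3 counts in each ND-fed Cyp2b-null library, and the WT male change was 3.63 without ND replicate 4. Pooled over the 4 libraries, Foxm1 had 6 counts on ND and 81 on CDAHFD in Cyp2b-null females, a ratio per count sequenced of 9.46 (95% counting interval 4.16 to 26.5), and 7 and 131 in Cyp2b-null males, a ratio of 13 (6.12 to 32.9). Cdca3, a trigger of mitotic entry, changed by 2.88 to 3.14 on the log2 scale.

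**Figure D3:**
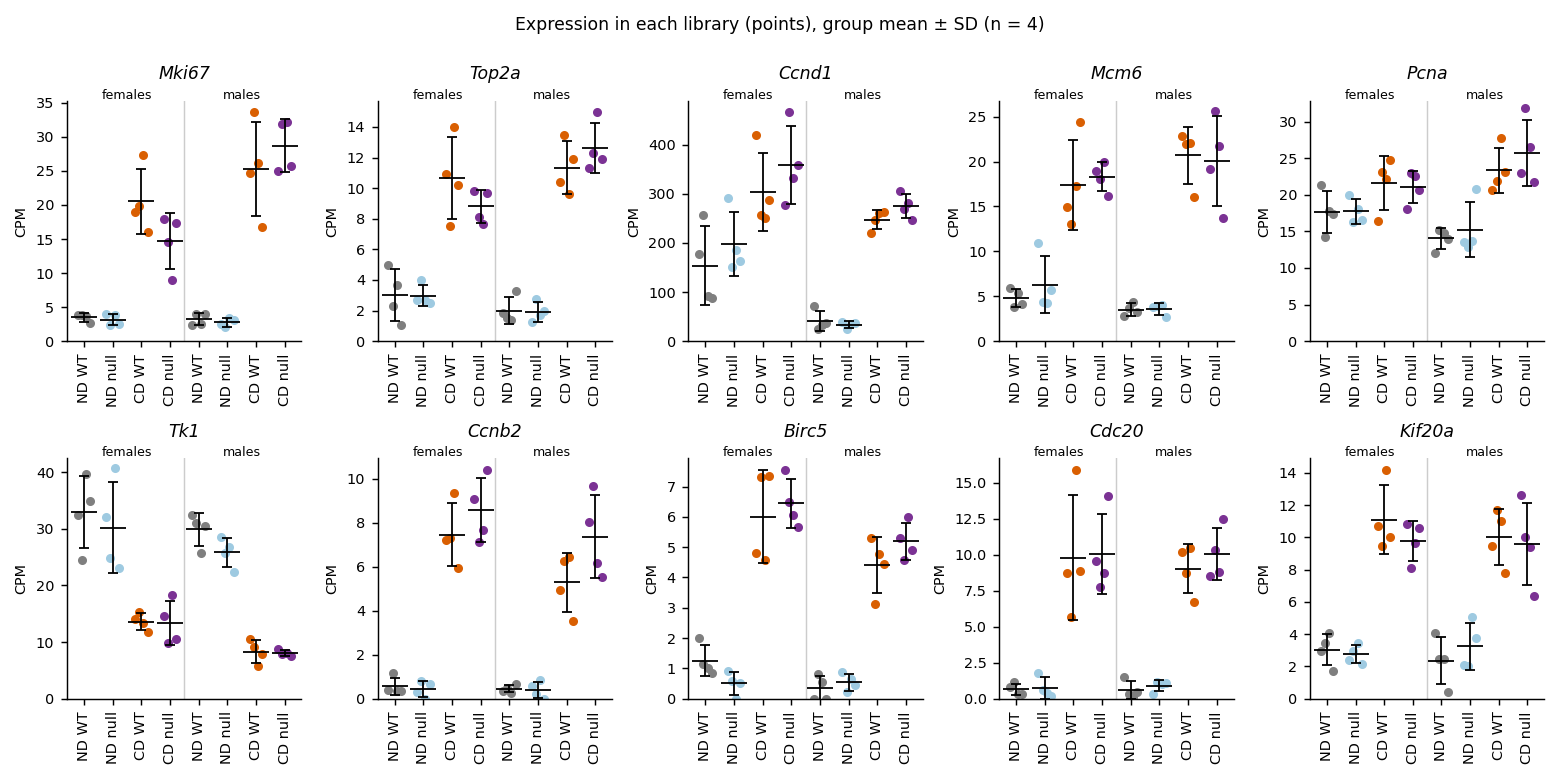
CPM of 10 members in each library (points) with the group mean and SD (n = 4), females left and males right of the line in each panel; CD stands for CDAHFD and null for Cyp2b-null. The ND-fed and CDAHFD-fed points of each sex are apart for Mki67, Top2a, Mcm6, Ccnb2, Birc5, Cdc20 and Kif20a, overlap for Ccnd1 and Pcna in females, and lie the other way round for Tk1.

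Cyclin D1 was the most abundant member, rose with CDAHFD in both sexes, and was the only member whose diet effect was called as differing between them. Ccnd1 (chr7:144929931-144939831) encodes the cyclin that takes growth signals to CDK4 and CDK6 in G1. It measured 177, 257, 92.9 and 88.8 CPM in ND-fed WT females and 420, 256, 250 and 288 CPM in CDAHFD-fed WT females, and 292, 150, 185 and 163 CPM in ND-fed Cyp2b-null females and 278, 467, 332 and 359 CPM in their CDAHFD-fed counterparts. Female groups overlapped on the 2 diets, and ND replicate 2 of the WT mice (257 CPM) reached the lower CDAHFD-fed libraries. In males Ccnd1 measured 71, 25.6, 32.2 and 37.6 CPM in ND-fed WT males and 221, 246, 261 and 263 CPM in CDAHFD-fed WT males, and 39.5, 24.4, 34.1 and 36.1 CPM in ND-fed Cyp2b-null males and 305, 269, 281 and 246 CPM in their CDAHFD-fed counterparts. No male library on ND exceeded 71 CPM and none on CDAHFD fell below 221 CPM. The log2 changes were 1.0 ± 0.33 in WT females, 0.89 ± 0.32 in Cyp2b-null females, 2.58 ± 0.23 in WT males and 3.03 ± 0.23 in Cyp2b-null males, with adjusted p-values of 0.0354, 0.0485, 6.96e-08 and 8.92e-09. The male changes held in every alternative fit, and the female ones did not. With the 30 libraries of the study's heat maps the adjusted p was 0.0544 in WT and 0.0892 in Cyp2b-null females. Without any 1 of ND WT replicates 1, 3 and 4, CDAHFD WT replicates 1 and 4 and CDAHFD Cyp2b-null replicate 3 the WT female call was lost, and over all 16 fits without 1 library its log2 change was 0.81 to 1.36 with adjusted p up to 0.0998. The Cyp2b-null female call was lost without any 1 of 10 libraries, namely ND WT replicate 1, CDAHFD WT replicates 2, 3 and 4, and replicates 2, 3 and 4 of both Cyp2b-null groups, at a log2 change of 0.74 to 1.14 and adjusted p up to 0.124 over the 16 fits.

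A neighbour of Ccnd1 moved with it. LTO1, listed as Oraov1 in the count tables and known for a part in ribosome and iron-sulfur protein biogenesis, lies at chr7:144915100-144930748 by RefSeq, and 818 bases of its span are shared with Ccnd1, which GENCODE places on the other strand. In GENCODE vM21 the shared exon stretch is 1100 of the 4709 exon bases of Ccnd1. LTO1 was looked at after the Ccnd1 values were seen. Oraov1 stood at 83.5, 113, 60.3 and 50.5 CPM in ND-fed WT females and 184, 144, 108 and 147 CPM in CDAHFD-fed WT females, and 121, 81.9, 85.3 and 73.6 CPM in ND-fed Cyp2b-null females and 133, 215, 253 and 173 CPM in their CDAHFD-fed counterparts. In males it stood at 33.5, 19.7, 18.2 and 19.2 CPM in ND-fed WT males and 82.1, 94.9, 92.2 and 109 CPM in CDAHFD-fed WT males, and 23, 17.3, 20.2 and 23.3 CPM in ND-fed Cyp2b-null males and 144, 115, 105 and 86.7 CPM in their CDAHFD-fed counterparts. It was below Ccnd1 in every library, with ND-fed males lowest as for Ccnd1. Its log2 changes with diet were 0.95 ± 0.24 in WT females, 1.13 ± 0.24 in Cyp2b-null females, 2.07 ± 0.18 in WT males and 2.42 ± 0.18 in Cyp2b-null males, with adjusted p-values of 0.00603, 0.00136, 1.34e-08 and 1.24e-09. Whether reads were counted by strand is not given in the sources used here, so reads of the shared stretch cannot be assigned to either gene, and the part of Oraov1 in the Ccnd1 result was not tested.

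The diet effect on Ccnd1 was larger in males than in females of the Cyp2b-null genotype. The male log2 change exceeded the female one by 2.17 ± 0.42 (95% interval 1.30 to 3.03, adjusted p = 0.00441) in Cyp2b-null mice and by 1.59 ± 0.42 (95% interval 0.73 to 2.45, adjusted p = 0.0682) in WT mice, in a fit over all 32 libraries. Ccnd1 was the only 1 of 37 tested members called for this difference in Cyp2b-null mice, where 3.37% of 14020 genes were called, and no member was called in WT mice, where 0.899% were. An adjusted p under 0.05 was reached for Ccnd1 in WT mice by DESeq2, by the likelihood ratio test, with the replicate block and with no filter on low counts. It was also reached without any 1 of ND WT female replicates 3 and 4, CDAHFD WT female replicate 1, ND Cyp2b-null female replicate 1 and ND WT male replicate 1, with a difference of 1.24 to 1.98 and an adjusted p of 0.0103 to 0.169 over the 32 fits that left out 1 library. For the neighbour Oraov1 the male change exceeded the female one by 1.32 ± 0.32 in Cyp2b-null mice (adjusted p = 0.0173) and by 1.13 ± 0.32 in WT mice (adjusted p = 0.0933). Male libraries on CDAHFD stood at 221 to 305 CPM and female ones at 250 to 467 CPM, whereas on ND males stood at 24.4 to 71 CPM and females at 88.8 to 292 CPM. The sexes were deposited in separate tables, and whether their libraries were prepared and sequenced together is not given in the sources used here, so sex and such a batch cannot be told apart. Macrophage markers differed between the sexes on ND as well, at 163 to 324 CPM in males and 359 to 611 CPM in females, and 4 of 7 were called for a larger diet effect in Cyp2b-null males; their part in the Ccnd1 difference was not tested.

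Unadjusted p-values under 0.05 for the sex difference were found for 3 members in WT mice, where 10.1% of all genes had one, and for 10 in Cyp2b-null mice, where 18.9% did. In Cyp2b-null mice those besides Ccnd1 were led by Aurkb (2.83, 95% interval 1.12 to 4.55, adjusted p = 0.0528), Mki67 (1.13, 95% interval 0.35 to 1.90, adjusted p = 0.0916) and Mcm5 (1.39, 95% interval 0.41 to 2.37, adjusted p = 0.099). In WT mice they were Ccnd1, Tpx2 (1.82, 95% interval 0.10 to 3.54) and Tk1 (−0.58, 95% interval −1.13 to −0.03).

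The E cyclins, which bind CDK2 at the entry to S phase, were called in 1 of 8 comparisons. Ccne1 measured 0.199, 0.765, 0.337 and 0.345 CPM in ND-fed WT females and 4.38, 1.42, 0.399 and 0.781 CPM in CDAHFD-fed WT females, and 4.23, 1.59, 1.92 and 0.502 CPM in ND-fed Cyp2b-null females and 0.755, 2.54, 3.93 and 2.05 CPM in their CDAHFD-fed counterparts. In males Ccne1 measured 1.29, 0.165, 0.412 and 2.19 CPM in ND-fed WT males and 2.47, 3.12, 1.52 and 1.42 CPM in CDAHFD-fed WT males, and 0.111, 0.456, 0.211 and 1.11 CPM in ND-fed Cyp2b-null males and 1.93, 2.19, 2.92 and 3.08 CPM in their CDAHFD-fed counterparts. Most values were a few counts, single libraries stood apart in several groups, and a rise was called only in Cyp2b-null males, at 2.55 ± 0.63 (adjusted p = 0.00245), or 3.38 without their ND replicate 4. The log2 change was 2.13 ± 0.86 in WT females (adjusted p = 0.0752), 0.35 ± 0.59 in Cyp2b-null females and 1.14 ± 0.56 in WT males. The WT female change passed without CDAHFD WT replicate 3 (adjusted p = 0.0351, log2 change 1.15 to 2.46 over the 16 fits) and the WT male change without ND WT replicate 4 (adjusted p = 0.0312). Ccne2 measured 3.18, 7.27, 4.38 and 2.41 CPM in ND-fed WT females and 7.22, 4.25, 2.79 and 4.53 CPM in CDAHFD-fed WT females, and 5.14, 5.16, 3.84 and 3.18 CPM in ND-fed Cyp2b-null females and 5.79, 4.28, 3.93 and 4.46 CPM in their CDAHFD-fed counterparts. In males Ccne2 measured 5.15, 2.65, 1.92 and 3.5 CPM in ND-fed WT males and 5.88, 3.54, 4.79 and 3.02 CPM in CDAHFD-fed WT males, and 4.22, 2.28, 4.85 and 3.1 CPM in ND-fed Cyp2b-null males and 4.35, 5.31, 3.58 and 2.87 CPM in their CDAHFD-fed counterparts. Its groups overlapped throughout, and the log2 changes were 0.24 ± 0.34 in WT females, 0.11 ± 0.32 in Cyp2b-null females, 0.41 ± 0.33 in WT males and 0.15 ± 0.33 in Cyp2b-null males, with adjusted p-values of 0.653, 0.827, 0.368 and 0.746.

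The genes of replication origins and forks split into members that rose and members whose change did not pass the test. The MCM genes encode the subunits of a single helicase ring, yet Mcm2, Mcm3, Mcm5 and Mcm6 rose in all 4 comparisons and Mcm4 and Mcm7 in none. Mcm6 measured 5.96, 3.83, 5.39 and 4.14 CPM in ND-fed WT females and 14.9, 13, 17.3 and 24.4 CPM in CDAHFD-fed WT females, and 10.9, 4.36, 4.22 and 5.69 CPM in ND-fed Cyp2b-null females and 18.9, 18.1, 20 and 16.2 CPM in their CDAHFD-fed counterparts. In males Mcm6 measured 2.76, 3.64, 4.39 and 3.28 CPM in ND-fed WT males and 22.8, 21.9, 22.1 and 16 CPM in CDAHFD-fed WT males, and 3.78, 3.87, 4 and 2.66 CPM in ND-fed Cyp2b-null males and 19.2, 25.6, 21.7 and 13.7 CPM in their CDAHFD-fed counterparts. The groups did not overlap, and the log2 changes of Mcm6 were 1.87 ± 0.26 in WT females, 1.58 ± 0.25 in Cyp2b-null females, 2.53 ± 0.22 in WT males and 2.49 ± 0.22 in Cyp2b-null males, with adjusted p-values of 1.19e-05, 5.14e-05, 1.02e-08 and 8.92e-09. Mcm2 changed by 1.58, 1.37, 1.68 and 1.91, Mcm3 by 1.0, 1.14, 1.13 and 1.05 and Mcm5 by 1.08, 0.93, 1.87 and 2.30 on the log2 scale, in the order WT females, Cyp2b-null females, WT males and Cyp2b-null males. Mcm5 in females was borderline (adjusted p = 0.0348 and 0.0482). Its WT female call was lost without any 1 of ND WT replicates 1 and 4 and CDAHFD WT replicates 3 and 4, at a log2 change of 0.76 to 1.43 and adjusted p up to 0.158 over the 16 fits. The Cyp2b-null female call of Mcm5 was lost without any 1 of CDAHFD WT replicates 2 and 3 and replicates 2, 3 and 4 of both Cyp2b-null groups, with adjusted p up to 0.122. Mcm4 changed by 0.35 ± 0.31 in WT females, 0.10 ± 0.31 in Cyp2b-null females, 0.76 ± 0.30 in WT males and 0.73 ± 0.29 in Cyp2b-null males and its male values fell just short (adjusted p = 0.0544 and 0.0553). They passed under scaling by library size alone, DESeq2, the likelihood ratio test and the replicate block, the Cyp2b-null value also in a fit of the groups compared alone, the WT value without ND WT replicate 2 or CDAHFD WT replicate 4, and the Cyp2b-null value without any 1 of ND WT replicates 2, 3 and 4 and ND Cyp2b-null replicate 1. Mcm7 changed by 0.10 ± 0.20 in WT females, 0.23 ± 0.21 in Cyp2b-null females, 0.47 ± 0.21 in WT males and 0.39 ± 0.21 in Cyp2b-null males.

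Pcna, the sliding clamp of the replication fork and a common tissue marker of proliferation, measured 21.3, 14.2, 17.8 and 17.4 CPM in ND-fed WT females and 16.4, 23.1, 22.1 and 24.8 CPM in CDAHFD-fed WT females, and 20, 16.3, 18 and 16.6 CPM in ND-fed Cyp2b-null females and 18.1, 23, 22.5 and 20.6 CPM in their CDAHFD-fed counterparts. In males Pcna measured 12.1, 15.2, 14.8 and 14 CPM in ND-fed WT males and 20.7, 21.9, 27.7 and 23.1 CPM in CDAHFD-fed WT males, and 13.5, 12.8, 13.7 and 20.8 CPM in ND-fed Cyp2b-null males and 23, 31.8, 26.5 and 21.7 CPM in their CDAHFD-fed counterparts. The male groups did not overlap, apart from ND Cyp2b-null replicate 4 at 20.8 CPM, which lay above the lowest WT library on CDAHFD, and within each genotype they stayed apart. In females they overlapped. The log2 change was 0.74 ± 0.17 in WT males (adjusted p = 0.00182) and 0.78 ± 0.17 in Cyp2b-null males (adjusted p = 0.000791), against 0.31 ± 0.17 (adjusted p = 0.194) and 0.29 ± 0.16 (adjusted p = 0.192) in WT and Cyp2b-null females. The difference between the sexes in the diet effect on Pcna was 0.46 ± 0.23 in WT mice (95% interval −0.02 to 0.93, adjusted p = 0.53) and 0.52 ± 0.23 in Cyp2b-null mice (95% interval 0.04 to 0.99, adjusted p = 0.22), so a difference was not shown.

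Thymidine kinase 1, the cytosolic salvage enzyme that makes thymidine monophosphate for DNA synthesis, ran against the rest in its counts. Tk1 (chr11:117815519-117826087) measured 32.4, 24.5, 39.7 and 35 CPM in ND-fed WT females and 14, 15.3, 13.4 and 11.7 CPM in CDAHFD-fed WT females, and 32.1, 24.8, 40.7 and 23.1 CPM in ND-fed Cyp2b-null females and 14.6, 9.84, 18.4 and 10.6 CPM in their CDAHFD-fed counterparts. In males Tk1 measured 32.4, 31.1, 25.7 and 30.6 CPM in ND-fed WT males and 10.6, 9.16, 5.73 and 7.81 CPM in CDAHFD-fed WT males, and 28.5, 25.7, 26.8 and 22.4 CPM in ND-fed Cyp2b-null males and 8.85, 7.91, 8.08 and 7.59 CPM in their CDAHFD-fed counterparts. The highest CDAHFD-fed library of each sex was below the lowest ND-fed library. The log2 changes were −1.26 ± 0.21 in WT females, −1.14 ± 0.21 in Cyp2b-null females, −1.86 ± 0.17 in WT males and −1.67 ± 0.17 in Cyp2b-null males, with adjusted p-values of 8.63e-05, 0.000221, 1.86e-08 and 4.52e-08. Tk1 fell under every scaling, filter, tool and left-out library that was tried.

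The Tk1 counts carry a limit of their own. RefSeq places Afmid, which encodes the kynurenine formamidase, at chr11:117825503-117839908, and its span shares 585 bases with that of Tk1 on the other strand. In GENCODE vM21 the shared exon stretch is 83 of the 5198 exon bases of Tk1. As the use of strand in counting is not known, reads of both genes in that stretch cannot be told apart. Like Oraov1, Afmid was looked at after the Tk1 values were seen. It stood at 158, 148, 191 and 199 CPM in ND-fed WT females and 41.6, 59, 45.4 and 19.1 CPM in CDAHFD-fed WT females, and 156, 112, 192 and 109 CPM in ND-fed Cyp2b-null females and 55.3, 44.7, 49.6 and 30.5 CPM in their CDAHFD-fed counterparts. In males it stood at 175, 171, 154 and 151 CPM in ND-fed WT males and 43.4, 30, 26.9 and 27.3 CPM in CDAHFD-fed WT males, and 154, 151, 156 and 130 CPM in ND-fed Cyp2b-null males and 31.1, 25.4, 27.3 and 35.5 CPM in their CDAHFD-fed counterparts. Afmid was thus above Tk1 in every group and fell with CDAHFD in all 4 comparisons too, with log2 changes of −2.06 ± 0.27 in WT females, −1.64 ± 0.27 in Cyp2b-null females, −2.35 ± 0.15 in WT males and −2.31 ± 0.14 in Cyp2b-null males and adjusted p-values of 2.45e-05, 0.000198, 7.42e-11 and 7.94e-11. Its part in the Tk1 result was not tested.

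By RefSeq spans 11 members overlap another protein-coding gene, so the same limit holds for the other 9 besides Tk1 and Ccnd1, namely Aurka, Ccna2, Ccne2, Cdc20, Foxm1, Kif20a, Mcm7, Nusap1 and Prc1. In GENCODE vM21 exons of 12 members are shared with those of a protein-coding gene, and these include Cdca8 (232 bases) and Ube2c (592 bases). The longest shared stretches are 1271 of 4338 exon bases of Kif20a, with Cdc23, 1100 of 4709 of Ccnd1 and 911 of 8225 of Prc1, with Rccd1. Of their neighbours, Elovl1 next to Cdc20 rose in all 4 comparisons, by 0.68, 0.77, 0.68 and 0.60 on the log2 scale. Cdc23 next to Kif20a rose in Cyp2b-null females and males (0.84 and 0.81), Rccd1 next to Prc1 in Cyp2b-null males (1.10) and Oip5 next to Nusap1 in WT males, where the ND-fed libraries held 1 count of Oip5 in all and the CDAHFD-fed ones 37 (pooled ratio 35.6, 95% counting interval 6 to 1440). Ints8 next to Ccne2 fell in both female comparisons (−0.53 and −0.51) and Ap4m1 next to Mcm7 in both male ones (−0.44 and −0.39). Exosc9 next to Ccna2, Cstf1 next to Aurka and Brd8, which also overlaps Kif20a, passed in none, and the neighbour of Foxm1 was listed at 0 in all libraries.

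Of the other genes of nucleotide supply, Rrm1 and Rrm2 encode the subunits of ribonucleotide reductase, which makes deoxynucleotides. Rrm1 measured 10.5, 10.7, 15.5 and 11.4 CPM in ND-fed WT females and 16.6, 12.7, 17.1 and 15.8 CPM in CDAHFD-fed WT females, and 9.68, 10.1, 10.4 and 12.5 CPM in ND-fed Cyp2b-null females and 15.3, 12.7, 16.4 and 18.9 CPM in their CDAHFD-fed counterparts. In males Rrm1 measured 12.5, 13.4, 9.74 and 8.53 CPM in ND-fed WT males and 15.9, 21, 18.2 and 14.4 CPM in CDAHFD-fed WT males, and 12.7, 16.2, 9.06 and 13.1 CPM in ND-fed Cyp2b-null males and 15.5, 19.9, 16.7 and 20.1 CPM in their CDAHFD-fed counterparts. Changes were small, at 0.41 ± 0.18 in WT females, 0.59 ± 0.18 in Cyp2b-null females, 0.65 ± 0.19 in WT males and 0.50 ± 0.19 in Cyp2b-null males, with adjusted p-values of 0.107, 0.0167, 0.0105 and 0.0375. The call in Cyp2b-null females was lost without ND Cyp2b-null replicate 2 or CDAHFD Cyp2b-null replicate 4 (adjusted p up to 0.0678). In Cyp2b-null males it was lost without any 1 of ND replicates 1, 3 and 4 and CDAHFD replicates 2 and 4 (adjusted p up to 0.144), and in WT females it was gained without ND WT replicate 3 (0.0486). Rrm2 rose in Cyp2b-null males alone (0.94 ± 0.33, adjusted p = 0.0274), and that call was lost without ND replicate 1, ND replicate 2 or CDAHFD replicate 2 of that genotype (log2 change 0.73 to 1.06 and adjusted p up to 0.113 over the 16 fits). In WT females Rrm2 passed without ND Cyp2b-null replicate 1, ND Cyp2b-null replicate 3 or CDAHFD Cyp2b-null replicate 3 (adjusted p = 0.0219 at the lowest).

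Per kilobase of annotated exon the order of the members changed with the diet. Ccnd1 stood at the top in all 8 groups, at 7.11 to 8.83 CPM per kb in ND-fed males, 32.7 to 41.8 in ND-fed females and 52.7 to 76.2 in the CDAHFD-fed groups, and Pcna came next throughout, at 5.83 to 10.8 CPM per kb. Tk1 followed these in all 4 ND-fed groups at 4.96 to 6.33 CPM per kb. On CDAHFD it ranked 9 of 38 in both female groups (2.62 and 2.58 CPM per kb) and 17 and 18 in WT and Cyp2b-null males (1.6 and 1.56 CPM per kb).

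Of the cyclins and the kinase of S, G2 and M phase, Ccnb1, Ccnb2 and Cdk1 rose in all 4 comparisons and Ccna2 in 3. All but Ccna2 passed the filter on low counts only through CDAHFD-fed libraries, which favoured a rise. Ccna2, cyclin A2, which acts in S phase and G2, measured 5.17, 10.3, 11.1 and 7.07 CPM in ND-fed WT females and 11.4, 9.44, 14 and 13.9 CPM in CDAHFD-fed WT females, and 6.65, 7.14, 9.98 and 4.85 CPM in ND-fed Cyp2b-null females and 13.1, 12.7, 14.5 and 14 CPM in their CDAHFD-fed counterparts. In males Ccna2 measured 7.36, 7.11, 7 and 6.12 CPM in ND-fed WT males and 9.86, 13.1, 13.1 and 11.4 CPM in CDAHFD-fed WT males, and 6.56, 5.47, 8.22 and 5.76 CPM in ND-fed Cyp2b-null males and 13, 13, 13.7 and 8.2 CPM in their CDAHFD-fed counterparts. Cyclin A2 was already present on ND, and its log2 changes of 0.62 ± 0.24 in WT females, 1.0 ± 0.24 in Cyp2b-null females, 0.78 ± 0.20 in WT males and 0.90 ± 0.20 in Cyp2b-null males (adjusted p = 0.0605, 0.00274, 0.00389 and 0.000977) did not pass in WT females, where they did without ND WT replicate 2 or 3, CDAHFD WT replicate 2 or CDAHFD Cyp2b-null replicate 3 (adjusted p = 0.0305 at the lowest). Ccnb2, a B cyclin, measured 0.398, 1.15, 0.337 and 0.345 CPM in ND-fed WT females and 7.22, 7.32, 9.37 and 5.94 CPM in CDAHFD-fed WT females, and 0.302, 0.793, 0 and 0.669 CPM in ND-fed Cyp2b-null females and 9.06, 7.14, 7.67 and 10.4 CPM in their CDAHFD-fed counterparts. In males Ccnb2 measured 0.368, 0.496, 0.274 and 0.656 CPM in ND-fed WT males and 4.93, 6.25, 6.43 and 3.55 CPM in CDAHFD-fed WT males, and 0.556, 0.228, 0.843 and 0 CPM in ND-fed Cyp2b-null males and 8.05, 9.68, 6.16 and 5.54 CPM in their CDAHFD-fed counterparts. The ND-fed livers held at most a few counts of Ccnb2, and each CDAHFD-fed library held at least 3.55 CPM. Its log2 changes were 3.87 ± 0.40 in WT females, 4.0 ± 0.39 in Cyp2b-null females, 3.57 ± 0.44 in WT males and 4.03 ± 0.43 in Cyp2b-null males, with adjusted p-values of 2.37e-07, 7.82e-08, 1.39e-06 and 1.32e-07. Since ND-fed WT libraries had at most 3 counts of Ccnb2 each, pooled counts are given too, with 8 on ND and 149 on CDAHFD in WT females, a ratio of 15.1 (95% counting interval 7.48 to 35.7), and 10 and 131 in WT males, a ratio of 12.6 (6.64 to 26.9). Ccnb1 had at most 3 counts in every ND-fed library. Its pooled ratios were 6.82 (2.7 to 22.1) in WT females, 5 (2.26 to 13.1) in Cyp2b-null females, 15.4 (3.93 to 133) in WT males and 8.31 (3.04 to 31.7) in Cyp2b-null males. Cdk1, the kinase the B cyclins activate, rose by 2.57, 2.33, 2.66 and 2.99 on the log2 scale in the same order. The 3 of these promoters at hand, for Ccnb1, Ccnb2 and Cdk1, each held a CCAAT box.

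Among the mitotic kinases and checkpoint genes, Plk1 and Bub1b rose in all 4 comparisons, Aurkb in 3, Bub1 in both male comparisons and Aurka in none. Where tested, all but Aurka passed the filter on low counts only through CDAHFD-fed libraries, which favoured a rise. Aurora kinase A, which acts at the spindle poles, measured 2.98, 3.83, 0.673 and 2.76 CPM in ND-fed WT females and 4.81, 4.01, 5.18 and 5.62 CPM in CDAHFD-fed WT females, and 2.72, 1.98, 2.69 and 4.35 CPM in ND-fed Cyp2b-null females and 1.76, 3.01, 5.18 and 5.79 CPM in their CDAHFD-fed counterparts. In males Aurka measured 3.86, 3.97, 4.25 and 3.28 CPM in ND-fed WT males and 3.22, 3.96, 6.43 and 3.73 CPM in CDAHFD-fed WT males, and 5, 2.73, 2.53 and 2.66 CPM in ND-fed Cyp2b-null males and 4.35, 5.31, 4.41 and 3.08 CPM in their CDAHFD-fed counterparts. The log2 changes were 0.95 ± 0.38 in WT females, 0.46 ± 0.37 in Cyp2b-null females, 0.20 ± 0.29 in WT males and 0.37 ± 0.29 in Cyp2b-null males, with adjusted p-values of 0.0737, 0.366, 0.653 and 0.347. The female WT groups did not overlap, and ND replicate 3 there, at 0.673 CPM, was far below the others. Aurora kinase B, the kinase of the chromosomal passenger complex, measured 0.596, 0, 0.337 and 0.345 CPM in ND-fed WT females and 2.63, 2.36, 3.19 and 2.19 CPM in CDAHFD-fed WT females, and 1.51, 0.397, 1.54 and 0.502 CPM in ND-fed Cyp2b-null females and 1.51, 1.74, 1.07 and 2.05 CPM in their CDAHFD-fed counterparts. In males Aurkb measured 0.368, 0.496, 0.137 and 0 CPM in ND-fed WT males and 2.47, 2.71, 2.57 and 1.42 CPM in CDAHFD-fed WT males, and 0.111, 0.228, 0 and 0.222 CPM in ND-fed Cyp2b-null males and 1.13, 2.39, 2.5 and 1.85 CPM in their CDAHFD-fed counterparts. The CDAHFD-fed Cyp2b-null females were the lowest of the female libraries on that diet, and 2 of the ND-fed Cyp2b-null libraries, at 1.51 and 1.54 CPM, were the highest on ND. Aurkb rose by 2.78 ± 0.55 in WT females, 3.07 ± 0.57 in WT males and 3.74 ± 0.65 in Cyp2b-null males, and changed by 0.93 ± 0.49 in Cyp2b-null females (adjusted p = 0.155). Pooled over libraries, its counts were 6 on ND and 52 on CDAHFD in WT females, a ratio of 7.04 (3.02 to 20), 6 and 56 in WT males, a ratio of 8.98 (3.88 to 25.5), and 3 and 69 in Cyp2b-null males, a ratio of 15.9 (5.23 to 79.1).

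Bub1b, the checkpoint kinase BUBR1 that holds anaphase until chromosomes are attached, measured 1.19, 1.15, 0.673 and 1.03 CPM in ND-fed WT females and 2.84, 2.12, 2.99 and 2.81 CPM in CDAHFD-fed WT females, and 0, 1.59, 1.15 and 0.502 CPM in ND-fed Cyp2b-null females and 4.78, 3.33, 2.5 and 3.98 CPM in their CDAHFD-fed counterparts. In males Bub1b measured 0.919, 1.16, 0.96 and 0 CPM in ND-fed WT males and 2.28, 7.7, 5.85 and 3.37 CPM in CDAHFD-fed WT males, and 0.556, 0.911, 1.05 and 1.11 CPM in ND-fed Cyp2b-null males and 5.31, 5.41, 6 and 5.74 CPM in their CDAHFD-fed counterparts. CDAHFD-fed libraries were above ND-fed ones in each comparison, by a log2 change of 1.40 ± 0.46 in WT females, 2.13 ± 0.45 in Cyp2b-null females, 2.56 ± 0.46 in WT males and 2.68 ± 0.45 in Cyp2b-null males (adjusted p = 0.0286, 0.00105, 0.000127 and 4.98e-05). The WT female call was lost without any 1 of ND WT replicates 1, 3 and 4 and CDAHFD WT replicates 1, 3 and 4, at a log2 change of 1.28 to 1.49 and adjusted p up to 0.0707 over the 16 fits. Without ND replicate 2 the Cyp2b-null female change of Bub1b was 2.79. Bub1 was called in WT males (log2 change 3.08 ± 0.70, or 4.44 without ND replicate 1, pooled ratio 9.38, 3.38 to 36.1) and in Cyp2b-null males (1.56 ± 0.59, adjusted p = 0.0424). The latter was lost without any 1 of CDAHFD WT replicate 2, ND replicates 1, 3 and 4 and CDAHFD replicates 1, 2 and 4 of the Cyp2b-null males, with adjusted p up to 0.12. In females, where Bub1 did not pass the filter, the pooled ratios were 3.83 (1.66 to 10.3) in WT and 4.73 (1.65 to 18.6) in Cyp2b-null mice. Plk1, the Polo kinase, rose by 2.80, 3.21, 3.68 and 2.35 on the log2 scale. In Cyp2b-null females the 4 ND-fed libraries held 7 counts of Plk1 in all, 6 of them in replicate 4, the log2 change was 5.07 without it, and the pooled ratio was 9.41 (4.39 to 24). In WT females it was 3.54 without ND replicate 2. Its pooled ratio in WT males, where each ND-fed library had at most 3 counts, was 14 (5.75 to 44.5).

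Survivin and borealin, which bring Aurora B to the centromere, rose in all 4 comparisons, as did 13.8% to 20.2% of all genes tested in each. Both passed the filter on low counts only through CDAHFD-fed libraries, so a rise was favoured in advance. Birc5, survivin, measured 1.99, 1.15, 1.01 and 0.862 CPM in ND-fed WT females and 4.81, 7.32, 4.58 and 7.34 CPM in CDAHFD-fed WT females, and 0.907, 0.595, 0 and 0.502 CPM in ND-fed Cyp2b-null females and 7.55, 6.5, 6.07 and 5.67 CPM in their CDAHFD-fed counterparts. In males Birc5 measured 0, 0.827, 0.549 and 0 CPM in ND-fed WT males and 5.31, 3.12, 4.79 and 4.44 CPM in CDAHFD-fed WT males, and 0.889, 0.228, 0.632 and 0.443 CPM in ND-fed Cyp2b-null males and 5.31, 4.58, 6 and 4.92 CPM in their CDAHFD-fed counterparts. ND-fed libraries stayed below 2 CPM and CDAHFD-fed ones above 3 CPM. The log2 changes were 2.25 ± 0.35 in WT females, 3.56 ± 0.41 in Cyp2b-null females, 3.49 ± 0.50 in WT males and 3.08 ± 0.46 in Cyp2b-null males, with adjusted p-values of 4.61e-05, 7.54e-07, 1.04e-05 and 1.27e-05, and the pooled ratio in Cyp2b-null females was 11.8 (6.07 to 26.4). The WT male change was 4.18 without ND replicate 2. Cdca8, borealin, measured 0, 0.765, 1.68 and 0.345 CPM in ND-fed WT females and 5.03, 4.25, 2.99 and 4.69 CPM in CDAHFD-fed WT females, and 0.605, 0, 0.384 and 0.502 CPM in ND-fed Cyp2b-null females and 1.26, 3.65, 2.14 and 5.91 CPM in their CDAHFD-fed counterparts. In males Cdca8 measured 0.184, 0.165, 0.549 and 0 CPM in ND-fed WT males and 2.84, 2.29, 2.22 and 0.71 CPM in CDAHFD-fed WT males, and 0.445, 0.911, 1.05 and 1.33 CPM in ND-fed Cyp2b-null males and 2.41, 2.71, 3.08 and 1.85 CPM in their CDAHFD-fed counterparts. Its levels were close to the floor on ND and 0.71 to 5.91 CPM on CDAHFD, with log2 changes of 2.87 ± 0.62 in WT females, 3.20 ± 0.67 in Cyp2b-null females, 2.91 ± 0.61 in WT males and 1.53 ± 0.48 in Cyp2b-null males and adjusted p-values of 0.00123, 0.000835, 7e-04 and 0.0146. The changes were 3.73 in WT females and 3.83 in WT males without ND replicate 3. The Cyp2b-null male call was lost without ND Cyp2b-null male replicate 1, at an adjusted p of 0.0744.

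Of the anaphase promoting complex, which marks securin and the B cyclins for destruction, the activator Cdc20 and the ubiquitin-conjugating enzyme Ube2c rose in all 4 comparisons. These too passed the filter on low counts only through CDAHFD-fed libraries, so a rise was favoured in advance. Cdc20 measured 0.795, 1.15, 0.337 and 0.345 CPM in ND-fed WT females and 8.75, 5.67, 15.9 and 8.9 CPM in CDAHFD-fed WT females, and 1.81, 0.595, 0.384 and 0.167 CPM in ND-fed Cyp2b-null females and 9.56, 7.77, 8.74 and 14.1 CPM in their CDAHFD-fed counterparts. In males Cdc20 measured 1.47, 0.331, 0.137 and 0.437 CPM in ND-fed WT males and 10.2, 8.74, 10.5 and 6.74 CPM in CDAHFD-fed WT males, and 0.333, 1.14, 1.05 and 1.11 CPM in ND-fed Cyp2b-null males and 8.53, 10.3, 8.83 and 12.5 CPM in their CDAHFD-fed counterparts. Its ND-fed libraries stood at 0.137 to 1.81 CPM and its CDAHFD-fed libraries at 5.67 to 15.9 CPM. The log2 changes of Cdc20 were 3.98 ± 0.47 in WT females, 3.91 ± 0.46 in Cyp2b-null females, 3.97 ± 0.41 in WT males and 3.57 ± 0.39 in Cyp2b-null males, with adjusted p-values of 1.48e-06, 1.28e-06, 1.15e-07 and 1.66e-07, and without ND replicate 1 the change was 4.71 in Cyp2b-null females and 4.92 in WT males. Ube2c measured 1.59, 0.383, 0.337 and 0.345 CPM in ND-fed WT females and 4.6, 3.78, 5.58 and 5.15 CPM in CDAHFD-fed WT females, and 0.605, 0.992, 1.15 and 0.335 CPM in ND-fed Cyp2b-null females and 4.78, 4.44, 6.25 and 4.1 CPM in their CDAHFD-fed counterparts. In males Ube2c measured 0.368, 0.662, 0.274 and 0.656 CPM in ND-fed WT males and 3.79, 5, 3.04 and 2.84 CPM in CDAHFD-fed WT males, and 0.333, 1.82, 0.843 and 0.443 CPM in ND-fed Cyp2b-null males and 2.41, 4.48, 3.75 and 2.87 CPM in their CDAHFD-fed counterparts. On ND, WT female replicate 1 and Cyp2b-null male replicate 2 stood above the rest, and both were below the CDAHFD-fed libraries. The log2 changes were 2.71 ± 0.43 in WT females, 2.74 ± 0.42 in Cyp2b-null females, 2.88 ± 0.48 in WT males and 2.10 ± 0.45 in Cyp2b-null males, with adjusted p-values of 4.55e-05, 3.26e-05, 6.62e-05 and 0.000646. Without those libraries the change was 3.70 in WT females and 2.72 in Cyp2b-null males.

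Of the spindle, kinetochore and cytokinesis genes, 7 of 7 tested members rose in each of the 4 comparisons, and Kif11 was not tested. The share of all genes tested that rose was 13.8% to 20.2%. In both sexes all of these 7 but Kif20a passed the filter on low counts only through CDAHFD-fed libraries. A rise was thus favoured in advance for them, and the count is no measure of the class. Kif20a, the motor MKLP2 that carries the passenger complex to the midzone, measured 2.98, 3.44, 4.04 and 1.72 CPM in ND-fed WT females and 10.7, 9.44, 14.2 and 10 CPM in CDAHFD-fed WT females, and 2.42, 2.98, 3.46 and 2.17 CPM in ND-fed Cyp2b-null females and 10.8, 8.09, 9.64 and 10.6 CPM in their CDAHFD-fed counterparts. In males Kif20a measured 4.05, 2.48, 2.47 and 0.437 CPM in ND-fed WT males and 9.48, 11.7, 11 and 7.81 CPM in CDAHFD-fed WT males, and 2.11, 2.05, 5.06 and 3.77 CPM in ND-fed Cyp2b-null males and 12.6, 10, 9.41 and 6.36 CPM in their CDAHFD-fed counterparts. No library on ND reached the lowest on CDAHFD (6.36 CPM), and the log2 changes were 1.96 ± 0.26 in WT females, 1.88 ± 0.26 in Cyp2b-null females, 2.04 ± 0.36 in WT males and 1.61 ± 0.34 in Cyp2b-null males, with adjusted p-values of 5.86e-06, 9.62e-06, 0.000103 and 0.000726. Racgap1, a subunit of centralspindlin, which builds the midzone for cytokinesis, measured 1.59, 1.15, 1.01 and 0.862 CPM in ND-fed WT females and 5.69, 7.79, 8.17 and 7.5 CPM in CDAHFD-fed WT females, and 0.302, 0.595, 1.54 and 0 CPM in ND-fed Cyp2b-null females and 5.03, 5.08, 3.39 and 5.91 CPM in their CDAHFD-fed counterparts. In males Racgap1 measured 0.736, 1.65, 0.274 and 0.437 CPM in ND-fed WT males and 4.55, 6.25, 4.44 and 3.19 CPM in CDAHFD-fed WT males, and 1.33, 2.05, 1.48 and 0.443 CPM in ND-fed Cyp2b-null males and 6.28, 6.66, 6.91 and 4.31 CPM in their CDAHFD-fed counterparts. The groups did not overlap, and the log2 changes were 2.66 ± 0.40 in WT females, 3.29 ± 0.48 in Cyp2b-null females, 2.54 ± 0.43 in WT males and 2.19 ± 0.39 in Cyp2b-null males, with adjusted p-values of 2.44e-05, 1.69e-05, 8.29e-05 and 9.93e-05. The change was 4.03 in Cyp2b-null females without ND replicate 3 and 3.24 in WT males without ND replicate 2. Cenpe, the kinetochore motor, rose by 3.24, 2.80, 4.46 and 3.05 on the log2 scale, with a pooled ratio of 9.51 (4.41 to 24.4) in WT females and 25 (9.48 to 93.5) in WT males. Tpx2, which activates Aurora A on the spindle, rose by 2.55, 2.17, 4.35 and 4.30, with a pooled ratio of 21 (9.47 to 58) in Cyp2b-null males. In WT males the ND-fed libraries held 6 counts of Tpx2 in all, 5 of them in replicate 2, so the log2 change was 6.19 without it, and the pooled ratio was 21.6 (9.69 to 60). Cenpf of the kinetochore rose by 3.46, 2.35, 3.05 and 2.42. In WT females 5 of its 6 counts on ND lay in replicate 1, the log2 change was 5.23 without it, and the pooled ratio was 11.5 (5.07 to 32.2). Nusap1 of the spindle rose by 1.66, 2.69, 1.73 and 1.64, and Prc1, which bundles midzone microtubules, by 2.54, 2.38, 3.51 and 2.57, or 1.95 in Cyp2b-null males without ND replicate 1.

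Read by individual libraries, the groups on the 2 diets did not overlap, with CDAHFD higher, for most tested members. These were 26 of 36 in WT females, 25 of 36 in Cyp2b-null females, 29 of 37 in WT males and 30 of 37 in Cyp2b-null males. Over all genes tested such a separation was found for 13.9%, 15.4%, 15.8% and 19.7%. The counts include the 19 members in females and 21 in males that passed the filter only through CDAHFD-fed libraries. For these a separation toward CDAHFD was favoured in advance. Tk1 was the member separated the other way in each, as were 12.2%, 15.4%, 12.6% and 17.1% of all genes tested.

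Genotype was not shown to change any member. With Cyp2b-null against WT mice, no member passed on ND or CDAHFD in either sex by edgeR, while 0.0529%, 0.0302%, 0.0297% and 0.0149% of all genes did in ND-fed females, CDAHFD-fed females, ND-fed males and CDAHFD-fed males. No member passed by DESeq2 either. An unadjusted p under 0.05 was found for 3, 1, 1 and 0 members in that order, against 5.63%, 5.79%, 8.15% and 3.4% of all genes. The 3 in ND-fed females were Ccne1 (2.27, 95% interval 0.48 to 4.07, adjusted p = 0.837), Birc5 (−1.23, 95% interval −2.32 to −0.13, adjusted p = 0.852) and Nusap1 (−1.35, 95% interval −2.58 to −0.11, adjusted p = 0.852), all on the log2 scale. Mki67 in CDAHFD-fed females had a log2 difference of −0.48 (95% interval −0.93 to −0.04, adjusted p = 0.833), which did not pass. Cdca8 in ND-fed males stood at 1.72 (95% interval 0.28 to 3.16, adjusted p = 0.504). In CDAHFD-fed males the smallest p was that of Ccnb2 (0.48, 95% interval −0.15 to 1.10, adjusted p = 1).

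These tests bound the genotype differences more tightly on CDAHFD than on ND, where counts were few. The 95% interval of the log2 difference lay within ±1 for 27 of 36 members in CDAHFD-fed females and 27 of 37 in CDAHFD-fed males, but for 13 of 36 and 16 of 37 on ND. For Ccnd1 the intervals on CDAHFD were −0.44 to 0.93 in females and −0.29 to 0.59 in males. For Pcna they were −0.37 to 0.29 and −0.19 to 0.48, and for Tk1 −0.48 to 0.41 and −0.38 to 0.36. The groups of the 2 genotypes did not overlap for Aurkb in CDAHFD-fed females, lower in Cyp2b-null mice, and for Foxm1 in CDAHFD-fed males, higher in Cyp2b-null mice. Such a separation, in either direction, was found for 2.83% and 2.54% of all genes in those comparisons.

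The diet effect was not shown to differ between the genotypes for any member by edgeR, and 0% of all genes were called in either sex. Unadjusted p-values under 0.05 were found for 2 members in females, against 6.22% of all genes, and for 0 in males, against 5.95%. The 2 were Aurkb, whose diet effect was smaller in Cyp2b-null than in WT females by −1.85 on the log2 scale (95% interval −3.46 to −0.23, adjusted p = 0.759), and Birc5 (1.31, 95% interval 0.08 to 2.54, adjusted p = 0.759). In males the smallest p was that of Cdca8 (−1.37, 95% interval −3.05 to 0.30, adjusted p = 0.867). DESeq2 called no member in either sex.

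**Figure D4:**
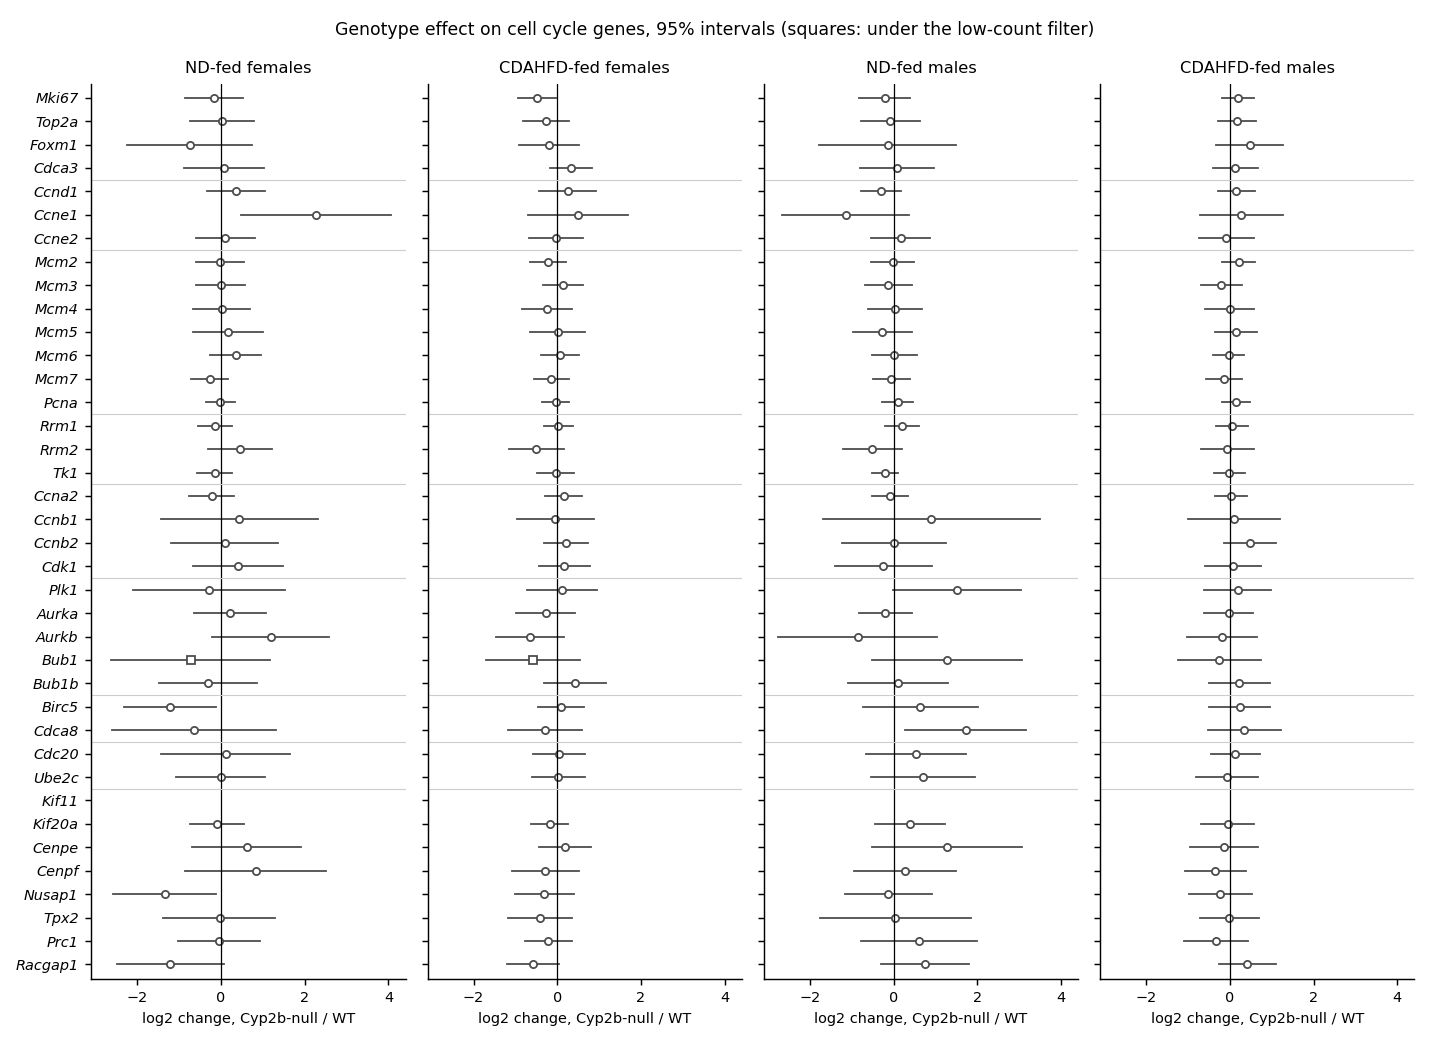
Log2 difference of Cyp2b-null against WT mice (x axis) with its 95% interval for each member in ND-fed and CDAHFD-fed females and males (4 libraries per group); squares mark members under the filter on low counts. Intervals are wider on ND, where they lie within ±1 for 13 of 36 members in females and 16 of 37 in males, than on CDAHFD, where they do so for 27 in each sex, and no member passed an adjusted p of 0.05.

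Further genes of the same pathways were read from lists that hold none of the 38 members. Of 40 further mitosis genes, 28 were tested in females and 33 in males, and 20, 17, 25 and 26 rose in WT females, Cyp2b-null females, WT males and Cyp2b-null males, with 0, 0, 2 and 1 lower. As for the members, 18 of these genes in females and 22 in males passed the filter on low counts only through CDAHFD-fed libraries, which favoured a rise there. Among those that ND-fed libraries alone carried through, 4 of 10, 2 of 10, 5 of 11 and 5 of 11 rose. Of all genes tested 13.8%, 17%, 18% and 20.2% rose, so the share in Cyp2b-null females was near that of all genes. Ckap2, a microtubule-stabilizing spindle protein, had 2, 10, 4 and 7 counts over the ND-fed libraries of WT females, Cyp2b-null females, WT males and Cyp2b-null males, and 110, 136, 89 and 114 over the CDAHFD-fed ones. Its pooled ratios were 44.6 (95% counting interval 12.1 to 373), 9.53 (5.02 to 20.3), 21.4 (8.07 to 80.3) and 11.3 (5.3 to 28.7). Kif2c, a kinesin that depolymerizes microtubules at the centromere, had 8, 6, 1 and 7 counts on ND in the same order, with pooled ratios of 6.39 (3.05 to 15.4), 7.35 (3.2 to 20.8), 49.1 (8.42 to 1980) and 8.61 (4.01 to 22). Dlgap5, a spindle assembly factor, had 1, 5, 12 and 8, with pooled ratios of 34.9 (5.94 to 1410), 5.6 (2.21 to 18.2), 4.25 (2.24 to 8.74) and 6.75 (3.26 to 16.2). These genes rose in each comparison by edgeR, but their size could not be set closely from so few counts on ND.

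The other lists are read against the 13.8%, 17%, 18% and 20.2% of all genes that rose. Of 21 tested replication genes out of 26 listed, 5, 7, 6 and 7 rose (23.8%, 33.3%, 28.6% and 33.3%) and 0, 0, 1 and 1 fell, in the same order. Of these 21, 6 in females and 5 in males passed the filter only through CDAHFD-fed libraries, which favoured a rise there. Among the replication genes that passed in ND-fed libraries, 1 of 15, 4 of 15, 2 of 16 and 2 of 16 rose. These shares were below those of all genes except in Cyp2b-null females. Gins2, a subunit of the replicative helicase, rose by 2.67 and 3.19 in WT females and WT males, Uhrf1, which reads hemimethylated DNA, by 1.43 and 2.73, and Chaf1a, a chromatin assembly subunit, by 2.42 and 1.89. Of 10 tested CDK inhibitors and pocket proteins, 4, 2, 5 and 5 rose (40%, 20%, 50% and 50%) and 0, 1, 0 and 0 fell. Among those that passed in ND-fed libraries, 3 of 9, 1 of 9, 3 of 8 and 3 of 8 rose, below the share of all genes in Cyp2b-null females. Cdkn1a, which encodes p21, an inhibitor of cyclin-dependent kinases, changed by 2.50 ± 0.79 in WT females, 4.18 ± 0.99 in Cyp2b-null females, 3.32 ± 0.41 in WT males and 3.56 ± 0.44 in Cyp2b-null males. Cdkn2c, the CDK4 and CDK6 inhibitor p18, changed by 0.86 ± 0.20 in WT females, 1.06 ± 0.20 in Cyp2b-null females, 1.83 ± 0.26 in WT males and 1.26 ± 0.24 in Cyp2b-null males. The pocket protein gene Rbl1 changed by 1.72 ± 0.36 in WT females, 0.89 ± 0.34 in Cyp2b-null females, 2.83 ± 0.33 in WT males and 2.31 ± 0.30 in Cyp2b-null males, which did not pass in Cyp2b-null females (adjusted p = 0.0539).

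Among 16 tested E2F, DREAM and MYB-MuvB genes 3 rose in each comparison (18.8%), a share near that of all genes, and 1, 2, 1 and 3 fell. Among those that passed in ND-fed libraries, 1 of 13, 1 of 13, 2 of 14 and 2 of 14 rose, below the share of all genes in each. Mybl1, which encodes A-MYB, had 10, 9, 4 and 8 counts over the ND-fed libraries, with pooled ratios of 11.7 (6.18 to 24.9), 10 (5.13 to 22.5), 38.2 (14.6 to 142) and 18.8 (9.37 to 44.1). Myc, the growth regulator, changed by 2.75 ± 0.31 in WT females, 2.08 ± 0.29 in Cyp2b-null females, 1.64 ± 0.48 in WT males and 1.91 ± 0.47 in Cyp2b-null males. Of 10 tested G1 cyclins, CDKs and their regulators, 2, 3, 2 and 6 rose (20%, 30%, 20% and 60%) and 0, 1, 1 and 0 fell. Among those that passed in ND-fed libraries, 1 of 8, 2 of 8, 0 of 8 and 4 of 8 rose, below the share of all genes in both WT comparisons. Cdc25b, a phosphatase that activates CDK1, changed by 2.52 ± 0.47 in WT females, 1.38 ± 0.42 in Cyp2b-null females, 1.32 ± 0.48 in WT males and 2.31 ± 0.51 in Cyp2b-null males. Cdk4, the partner of cyclin D1, changed by 0.28 ± 0.17 in WT females, 0.57 ± 0.16 in Cyp2b-null females, 0.27 ± 0.14 in WT males and 0.51 ± 0.14 in Cyp2b-null males, and rose in both Cyp2b-null comparisons.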

How the data were processed

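RNA was isolated from mouse liver with TRIzol, libraries were made with the NEB Next Ultra kit, and per the labels and methods the authors checked reads with FastQC, trimmed them with Trimmomatic, aligned them to GRCm38.p6 with GSNAP and counted them per gene with featureCounts of the Subread package. The submitters' processing notes name edgeR as well. How strand and multiply mapped reads were treated is not given in the sources used here. The deposited values are raw counts of reads per gene, in 1 table for females and 1 for males, and every column of values was matched to a sample by its label.

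From these counts, edgeR 4.0.16 (R 4.3.3, limma 3.58.1) was run for each sex on 16 libraries in 4 groups, with TMM scaling, filterByExpr (minimum count 10, minimum total 15), the quasi-likelihood test and Benjamini-Hochberg adjustment over all genes tested, with calls at an adjusted p of 0.05. Differences between the sexes came from a fit over all 32 libraries and 8 groups. DESeq2 1.42.0, the likelihood ratio test, other scalings and filters, a replicate block, the 30 libraries of the study's heat maps and fits without 1 library were run as alternatives. The fits were tested on simulated data. The labels number 4 samples per group without saying that they are separate animals, so p-values measure the spread between these samples. Counting intervals and floors cover counting error only.

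Members, gene lists and tests were chosen with earlier results of these data known. The text names the 2 members of highest mean CPM in each role class, members called for genotype, for the interaction, for the sex difference or as lower with diet, the member of smallest p where none was called, and up to 3 genes of each other list. The latter had the largest absolute log2 change in WT mice among genes called with diet in both sexes. They are therefore not typical of their lists. Levels per kilobase used the GENCODE vM21 exon length.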

Additional observations from a re-analysis of the deposited data

Results flagged for a closer look

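In 10 of 160 groups of 4 libraries that were checked, 1 library stood apart, its gap to the nearest of the others, divided by the range of the group, being above Dixon's 95% critical value. Chance flags about 1 in 20 groups. On ND, Mki67 was low in WT female replicate 4 (gap over range 0.895, 2.59 CPM against 3.7 to 3.83 CPM), Top2a was high in Cyp2b-null female replicate 2 (0.856, 3.97 against 2.51 to 2.72 CPM), Ccnb2 was high in WT female replicate 2 (0.925, 1.15 against 0.337 to 0.398 CPM) and Ube2c was high in WT female replicate 1 (0.963, 1.59 against 0.337 to 0.383 CPM). In ND-fed Cyp2b-null males, replicate 4 was high for Pcna (0.888, 20.8 against 12.8 to 13.7 CPM) and low for Mcm6 (0.836, 2.66 against 3.78 to 4 CPM), and replicate 1 was high for Aurka (0.919, 5 against 2.53 to 2.73 CPM) and low for Cdc20 (0.888, 0.333 against 1.05 to 1.14 CPM). On CDAHFD, replicate 4 was low for Mcm6 in WT males (0.868, 16 against 21.9 to 22.8 CPM) and for Ccna2 in Cyp2b-null males (0.873, 8.2 against 13 to 13.7 CPM).

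The diet effect on Ccnd1 differed between the sexes in Cyp2b-null mice, by 2.17 on the log2 scale by edgeR (adjusted p = 0.00441). Its neighbour Oraov1 differed between the sexes too, by 1.32 (adjusted p = 0.0173).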

How the results depend on the processing

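Under the alternatives 4032 values were recomputed, those of single members and the median diet changes of the tested members. Of these, 3893 counted as the same, 66 no longer passed, 56 newly passed and 17 changed sign. A member value was the same if it kept its direction and side of the threshold. A median, which has no p-value, was the same if it moved by no more than the SD of the member changes. Without 1 library each, the members called with diet numbered 24 to 28 in WT females, 25 to 28 in Cyp2b-null females, 30 to 32 in WT males and 30 to 34 in Cyp2b-null males, and 0 for genotype and for the interaction. With diet effects compared between the sexes they numbered 0 to 1 in WT and 1 to 2 in Cyp2b-null mice. For that difference in WT mice 1 member, Ccnd1, was called with no filter on low counts, by DESeq2, by the likelihood ratio test, with the replicate block and at an adjusted p under 0.1. In Cyp2b-null mice 2 were called with no filter, by the likelihood ratio test and with only the groups compared, and 4 at an adjusted p under 0.1. The deviations of same-numbered libraries from their group means correlated at −0.11 to 0.177 in 24 pairs of females, 2 of them over 0.1. In 24 pairs of males they correlated at −0.185 to 0.292, 3 of them over 0.1. Differently numbered libraries were not compared, so whether same-numbered ones were paired cannot be told from these values. With the replicate block, 27, 27, 32 and 34 members were called with diet, 0 for genotype and the interaction and 1 for the sex difference in either genotype. The sign changes were in values that did not pass. For Rrm2 in Cyp2b-null females the log2 change became 0.215 by library size alone, 0.001 with the 30 libraries of the heat maps, and −0.24 to 0.468 without 1 library each, with 0.001 and 0.065 without CDAHFD Cyp2b-null replicates 3 and 4. Without 1 library each, Ccne2 ranged over −0.026 to 0.57 in WT females, −0.042 to 0.227 in Cyp2b-null females and −0.015 to 0.299 in Cyp2b-null males (with −0.002 at another library), Mcm7 over −0.062 to 0.259 in WT females, Ccne1 over −0.067 to 0.96 and Mcm4 over −0.036 to 0.495 in Cyp2b-null females (with −0.019 and −0.011 at others), Aurka over −0.087 to 0.331 in WT males, and the genotype difference of Pcna in CDAHFD-fed females over −0.15 to 0.042 (with 0.021 at another). Beyond fits without 1 library, the WT female change newly passed for Rrm2 under 6 alternatives, Ccne1 under 4, Ccna2 under 3 and Aurka under 2. Causes were not tested. Depth limits the ND-fed groups, where many members had at most 3 counts per library.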
